A study of Mus musculus with 11 samples.

Results

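DNA replication and mitosis genes, 49 in number, were examined across the 4 lines of a murine melanoma progression model. The list was fixed by gene name and held 24 genes that act in or just before S phase and 25 that act in mitosis. All 49 were found among the 14272 genes with deposited values.

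S-phase genes encode the cyclins and E2F factors that start DNA synthesis, the proteins that load and activate the MCM helicase at origins, the polymerases, and the enzymes that supply deoxynucleotides. Mitotic genes encode the cyclin-dependent kinase that drives mitotic entry, the spindle motors, the kinetochore and checkpoint proteins that attach and count chromosomes, and the ubiquitin ligase parts that end mitosis. E2F proteins drive many of the first group, and the MuvB complex with B-Myb and FoxM1 drives many of the second, so that both sets are commonly read as a sign of how many cells in a culture are cycling.

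Total RNA, depleted of ribosomal RNA, was sequenced from melan-a (2 libraries, replicates 2 and 3), 4C (3), 4C11- (3) and 4C11+ (3). Melan-a is a spontaneously immortalized, nonmalignant melanocyte line from C57BL/6 mice, grown with 200 nM PMA (phorbol myristate acetate). The other lines came from melan-a by repeated cycles of detachment and re-adhesion and were grown in the same serum-containing medium without PMA. 4C and 4C11- are mesenchymal-like, melan-a and 4C11+ epithelial, 4C11- and 4C11+ form tumors, and only 4C11+ forms lung metastases in mice. Each stage is 1 line, its libraries are replicates of that line, and the p-values therefore measure the spread between such replicates. The paper does not say whether the replicates were separate cultures. The effect of PMA cannot be told apart from that of the line in any comparison with melan-a. Melan-a replicate 1 was not analysed here. In RNA from whole cultures, fewer cycling cells and less RNA per cell cannot be told apart.

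Depth was estimated by taking the 40th step above the lowest value of each library as 40 reads. It came to about 3500000 to 7420000 reads, and the lowest member value, 2.58 for Ccne2 in melan-a replicate 2, to about 22 reads. Both figures are rough, since the deposited values share 1 distribution across libraries and may not be plain counts over library size. The summed level of 8 melanocyte markers was 10.87 to 13.14 on the log2 CPM scale (CPM, counts scaled to a common library size) in melan-a and 13.37 to 13.65 in 4C11+, but 1.85 to 2.90 in 4C and 1.64 to 3.53 in 4C11-, where the defining melanocyte genes were thus near the bottom of the scale. Of 6 fibroblast markers, 3 had values, Col1a1, Col3a1 and Pdgfra. Their summed level, which 1 gene can dominate, was 10.70 to 11.11 in the libraries of 4C and 4C11- and 3.05 to 6.42 in the others. Col1a2, Dcn and Lum had no value, and the authors dropped genes that did not reach 1 CPM in 4 libraries. The part of these marker levels in the results below was not tested.

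Most of these genes passed no test between the lines. Of 49 members, 9 (18.4%) passed the F test over the 4 lines, while 36.1% of all genes did (limma, Benjamini-Hochberg adjusted p under 0.05, as for all calls). The 9 were Mcm3, Mcm6, Prim2 and Pole in the S-phase group and Ccnb2, Bub1b, Cenpa, Kif20a and Tpx2 in the mitotic group. Rrm2 and Top2a passed 1 comparison of 2 lines each, so 11 members passed at least 1 pairwise comparison and 38 passed no test. Among the 49, 39 had a wider range within at least 1 line than between the 4 line means. The share of all genes with such a range was not computed, and the largest of 4 ranges is set against 1 range of means. The median SD within lines (residual SD) was 0.47 over the members and 0.48 over all genes. The heat map of the 49 genes shows the spread from library to library.

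**Figure D1:**
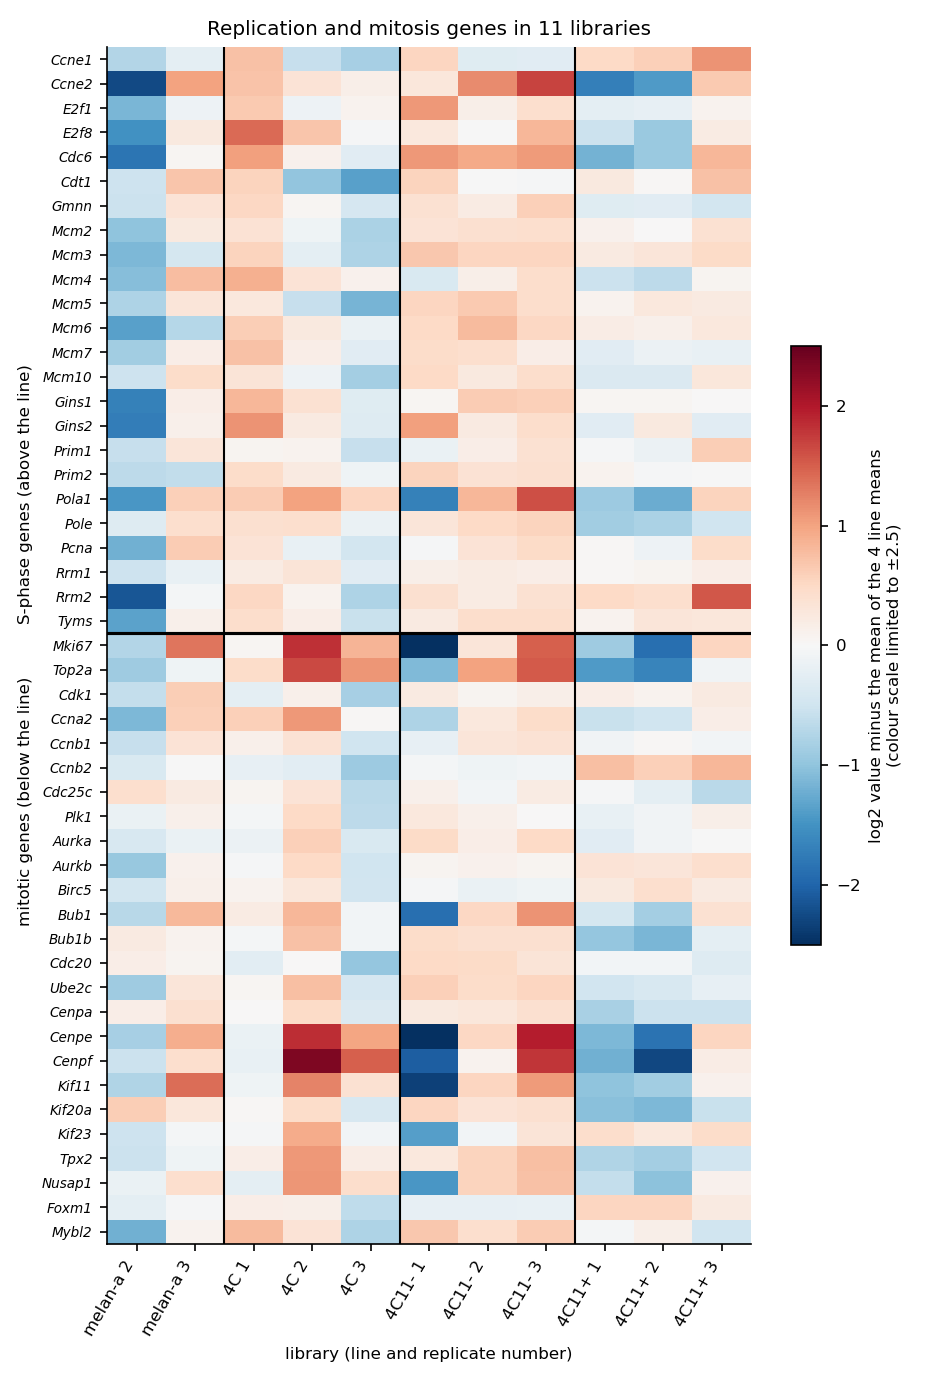
Levels of 24 S-phase genes (top) and 25 mitotic genes (bottom) in each of 11 libraries, as the log2 CPM value minus the mean of the 4 line means, red above and blue below it. Melan-a replicate 2 is blue for most S-phase genes, 4C11- replicate 1 is dark blue for Mki67, Cenpe, Cenpf and Kif11, and 4C11+ differs from 4C11- in all of its libraries for Ccnb2, Bub1b, Cenpa, Kif20a, Tpx2 and Pole.

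The comparison of 4C11+ with 4C11-, the metastatic with the non-metastatic tumor line, had 6 called members, which is 12.2% of the list beside a background of 31.1% of all genes. Of these, 1 rose in 4C11+, Ccnb2 (background of higher calls 15.6%), and 5 fell, Bub1b, Cenpa, Kif20a, Tpx2 and Pole (background of lower calls 15.4%). The comparison of 4C11+ with 4C had 7 called members (14.3%, background 31.7%), which were these 6 in the same directions and Top2a, so that 1 rose (background 17.1%) and 6 fell (background 14.6%). In 4C11+ against melan-a, 6 members passed (12.2%, background 15.9%): 4 rose, Ccnb2, Mcm3, Mcm6 and Rrm2 (background 8.39%), and 2 fell, Cenpa and Kif20a (background 7.52%). In 4C11- against melan-a, 3 members passed (6.12%, background 13.6%), and all 3 rose, Mcm3, Mcm6 and Prim2 (background of higher calls 7.55%, of lower calls 6.05%). In 4C against melan-a, 2 passed (4.08%, background 15.2%), Mcm6 and Prim2, both higher in 4C (background of higher calls 7.64%, of lower calls 7.55%). In 4C11- against 4C, limma called 0 members (background 1.67%, with 1.26% higher and 0.406% lower). Its unadjusted p was under 0.05 for 3 of 49 members, Cdc20, Mcm3 and Mcm5, beside 1926 of all 14272 genes. These comparisons share libraries and are not independent of each other.

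The 24 calls were made in pairs of lines whose libraries did not overlap. No overlap was seen for 22 of 49 members between 4C11+ and 4C11- (44.9%, against 47.0% of all genes) and for 18 between 4C11- and melan-a (36.7%, against 36.6%). The numbers were 17 between 4C11+ and melan-a (34.7%, against 46.6%), 9 between 4C11+ and 4C (18.4%, against 51.3%), 5 between 4C and melan-a (10.2%, against 42.1%) and 3 between 4C11- and 4C (6.12%, against 19.3%). The separation of members was thus near or below the background in each comparison.

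Promoters are shown for the 7 of these 11 members that had an entry in the RefSeq promoter set used here (build GRCm38.p6). Kif20a, Tpx2, Pole and Prim2 had no entry in that set, though each had a call kept in all 19 alternatives to the fit. Each line gives the 150 bases before the annotated start, read along the gene's strand, with the matches of 3 motif groups in capitals on either strand: the CCAAT box (CCAAT), the cell cycle homology region or CHR (TTTGAA), to which MuvB binds, and E2F-type sites (with the letters TTCCCGC in a first form, TTGGCGC in a second form and TTCGCGC in the third). Capitals run together where matches overlap. Top2a lies at chr11:99024190-99024339 (minus strand), Ccnb2 at chr9:70421555-70421704 (minus), Bub1b at chr2:118598061-118598210 (plus), Cenpa at chr5:30666736-30666885 (plus), Mcm3 at chr1:20820313-20820462 (minus), Mcm6 at chr1:128359706-128359855 (minus) and Rrm2 at chr12:24708104-24708253 (plus).
Top2a: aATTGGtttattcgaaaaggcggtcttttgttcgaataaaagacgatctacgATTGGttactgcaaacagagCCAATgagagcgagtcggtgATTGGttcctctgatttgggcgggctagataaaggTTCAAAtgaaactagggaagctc
Ccnb2: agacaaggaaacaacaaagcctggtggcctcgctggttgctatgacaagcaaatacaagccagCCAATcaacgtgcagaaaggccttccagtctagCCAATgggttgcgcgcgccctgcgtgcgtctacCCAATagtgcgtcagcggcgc
Bub1b: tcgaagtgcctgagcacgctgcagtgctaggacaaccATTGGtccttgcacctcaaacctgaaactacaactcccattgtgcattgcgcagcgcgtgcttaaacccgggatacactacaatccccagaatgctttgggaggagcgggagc
Cenpa: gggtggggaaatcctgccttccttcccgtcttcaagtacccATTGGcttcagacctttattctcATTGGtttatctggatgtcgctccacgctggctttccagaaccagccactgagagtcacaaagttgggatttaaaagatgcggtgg
Mcm3: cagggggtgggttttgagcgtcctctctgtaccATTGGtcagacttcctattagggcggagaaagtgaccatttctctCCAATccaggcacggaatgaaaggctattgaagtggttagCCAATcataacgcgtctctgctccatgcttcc
Mcm6: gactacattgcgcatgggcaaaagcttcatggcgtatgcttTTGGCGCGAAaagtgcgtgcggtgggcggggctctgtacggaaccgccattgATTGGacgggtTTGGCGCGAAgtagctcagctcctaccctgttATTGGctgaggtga
Rrm2: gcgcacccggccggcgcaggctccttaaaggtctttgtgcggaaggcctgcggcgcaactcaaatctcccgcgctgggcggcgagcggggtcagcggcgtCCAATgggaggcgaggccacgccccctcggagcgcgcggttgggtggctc
A search window of 250 bases before to 50 after the start was used for counts, and 36 of 49 members had an entry. The CHR letters were found in 13 of 19 mitotic promoters (68.4%), 2 of 17 S-phase promoters (11.8%) and 18.1% of all 27025 promoters. E2F-type letters were found in 10 of 17 S-phase promoters (58.8%), 3 of 19 mitotic promoters (15.8%) and 8.21% of all. The CCAAT box was found in 16 of 19 mitotic (84.2%), 12 of 17 S-phase (70.6%) and 37.9% of all promoters. Of the promoters printed, Mcm6 holds 2 stretches in which a pair of E2F-type matches overlap, Top2a has a CHR match 23 bases before the start, and the CHR matches of Ccnb2, Bub1b and Cenpa lie in the window but outside the printed stretch. The E2F-type matches of Mcm3, which begin at bases 20, 40 and 43 after the start, also lie outside it, as does a further match of Mcm6 at base 25. Ccnb2 rose in 4C11+ while Bub1b and Cenpa fell, and all 3 promoters hold both CHR and CCAAT letters. Whether these letters have a part in the differences was not tested. A match is a description of letters and not a measured binding site.

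Several libraries stood apart from others of their line. Melan-a replicate 3 was above replicate 2 in 24 of 24 S-phase genes, with a median gap of 1.14 log2 units, and in 21 of 25 mitotic genes, with a median of 0.60. Over all genes the median gap was 0.05. In 4C, replicate 3 was below replicate 1 in 24 of 24 S-phase genes (median -1.01) and below replicate 2 in 25 of 25 mitotic genes (median -0.90). Replicate 2 of 4C was lower than replicate 1 in 20 of 24 S-phase genes but higher in 22 of 25 mitotic genes, so that replicate 1 was the higher for S-phase genes and replicate 2 for mitotic genes. In 4C11+, replicate 3 was above replicate 1 in 20 of 24 S-phase and 20 of 25 mitotic genes. Estimated depth was about 3500000 and 5820000 reads in melan-a replicates 2 and 3. It was 6510000, 7080000 and 5670000 in 4C replicates 1 to 3, and 4190000, 4070000 and 5470000 in those of 4C11+. The lower library thus had fewer reads in the melan-a pair, in 4C replicate 3 against the others, and in 4C11+ replicate 1 against 3. Between 4C replicates 1 and 2 this held for mitotic genes but not for S-phase genes. The part of depth in these gaps was not tested.

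**Figure D2:**
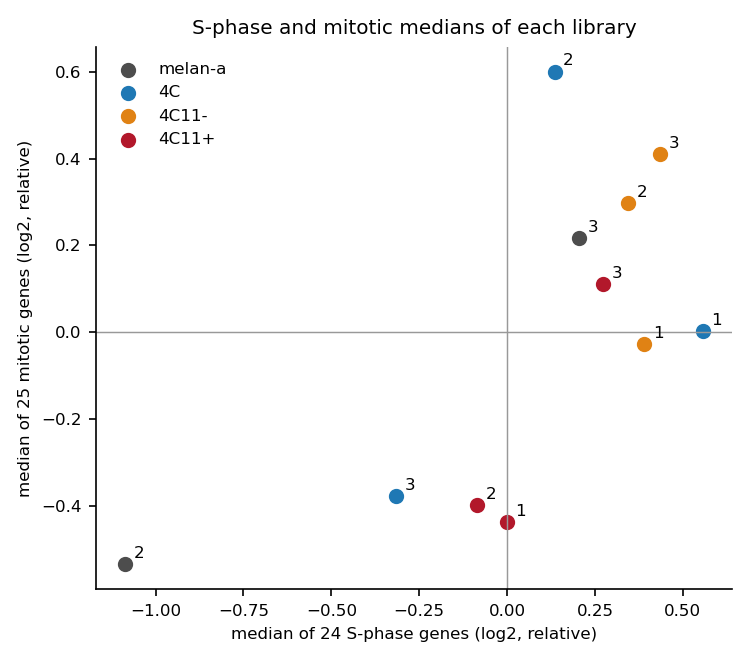
Each point is 1 library, placed by the median of its 24 S-phase genes (x axis) and of its 25 mitotic genes (y axis), both in log2 units relative to the mean of the 4 line means; numbers are replicate numbers and colors are lines. Melan-a replicate 2 lies lowest on both axes, at -1.09 and -0.53, while melan-a replicate 3 lies at 0.20 and 0.22, and the 3 libraries of 4C lie far from each other.

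Relative to the mean of the 4 lines, the S-phase median was -1.09 in melan-a replicate 2 and 0.20 in replicate 3. The mitotic medians of the 4C libraries were 0.00, 0.60 and -0.38. Across the 11 libraries, the S-phase and mitotic medians had a Pearson r of 0.667, given as a description of libraries that share their line and their depth.

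The median S-phase difference was 0.77 in 4C11- against melan-a, and 24 of 24 S-phase genes were positive there, beside a median of -0.07 over all genes. Leaving out 1 library at a time gave S-phase medians of 0.20 (without melan-a replicate 2, 18 of 24 positive) to 1.42 (without melan-a replicate 3). The median of the mitotic genes was 0.13, with 16 of 25 positive. It was -0.13 with 9 of 25 positive without melan-a replicate 2, 0.07 without 4C11- replicate 3, 0.47 without melan-a replicate 3, and 0.48 with 22 of 25 positive without 4C11- replicate 1. In 4C against melan-a, the S-phase median of 0.60 was 0.00 without melan-a replicate 2, 0.37 without 4C replicate 1 and 1.09 without melan-a replicate 3. The mitotic median of 0.26 was -0.17 without melan-a replicate 2, -0.02 without 4C replicate 2 and 0.61 without melan-a replicate 3. In 4C11+ against melan-a, the S-phase median of 0.43 was -0.20 without melan-a replicate 2 and 1.06 without replicate 3. The mitotic median of -0.27 was -0.59 and 0.16 without these, and -0.08 without 4C11+ replicate 2. The direction of the S-phase genes against melan-a therefore depended on melan-a replicate 2 in 4C11+, and their excess in 4C was gone without it.

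In 4C11+ against 4C11-, the median difference was -0.42 for S-phase and -0.41 for mitotic genes, with 20 of 24 and 19 of 25 negative, beside 0.12 over all genes. Leaving out 1 library at a time, the S-phase median stayed between -0.43 and -0.35. The mitotic median was -0.66 without 4C11- replicate 1, -0.21 without 4C11+ replicate 2, -0.18 without 4C11- replicate 2 and -0.09 without 4C11- replicate 3, and it was negative in each case. In 4C11+ against 4C the medians were -0.11 and -0.49, beside 0.08 over all genes. The first was 0.03 without 4C replicate 1 and -0.29 without 4C replicate 3, and the second -0.18 without 4C replicate 2 and -0.76 without 4C replicate 3. In 4C11- against 4C they were 0.34 and 0.09, beside 0.01 over all genes. The S-phase median was 0.07 without 4C replicate 3 and 0.57 without 4C replicate 1. The mitotic median was -0.11 without 4C replicate 3, 0.05 without 4C11- replicate 3, 0.21 with 19 of 25 positive without 4C11- replicate 1, and 0.34 without 4C replicate 2.

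**Figure D3:**
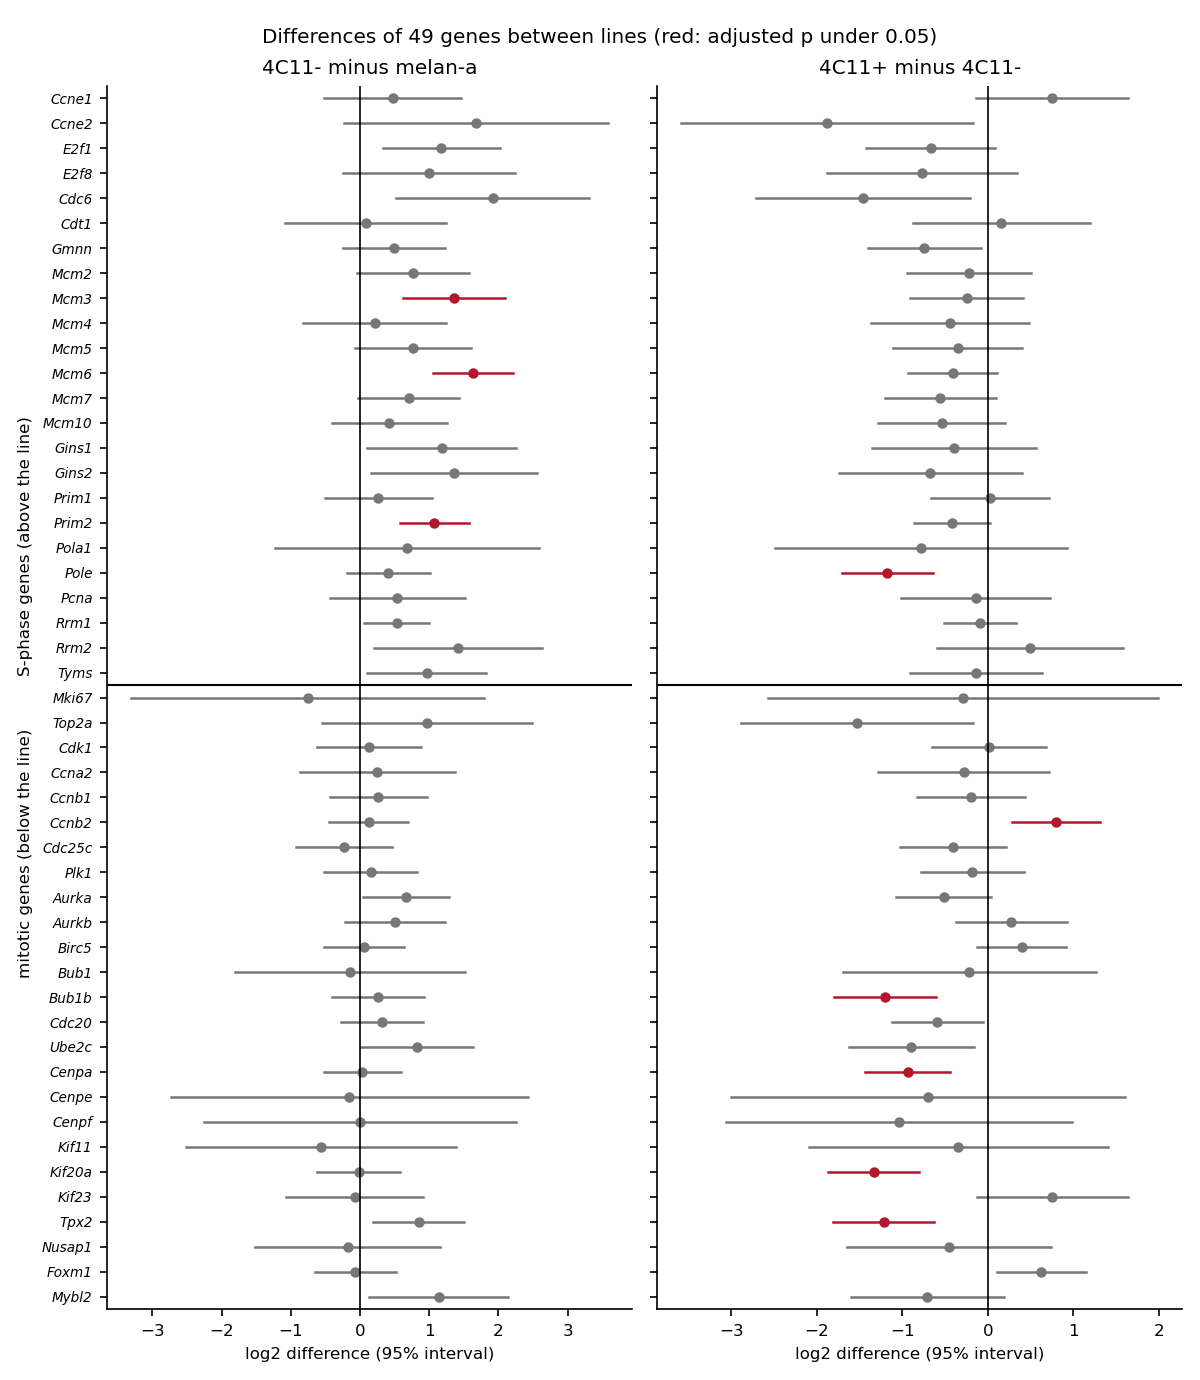
Difference in log2 CPM between lines for each of 49 genes (points) with its 95% interval from limma (bars), 4C11- minus melan-a on the left and 4C11+ minus 4C11- on the right; red marks an adjusted p under 0.05. All 24 S-phase points lie right of 0 on the left panel with 3 called, and 39 of 49 points lie left of 0 on the right panel with 5 called lower and 1 higher.

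Among the S-phase genes, most MCM proteins are subunits of the replicative helicase, and Mcm10 helps to activate it. Values are log2 CPM levels, in order of replicate number within each line. Mcm6, a helicase subunit, had levels of 7.27 and 7.92 in melan-a, 9.25, 8.88 and 8.46 in 4C, 9.12, 9.42 and 9.15 in 4C11-, and 8.81, 8.76 and 8.90 in 4C11+. Both melan-a libraries were below all others. Mcm6 was 2.40-fold higher in 4C than in melan-a (log2 difference 1.26, SE 0.26, adjusted p = 0.00684), 3.11-fold higher in 4C11- (1.63, SE 0.26, adjusted p = 0.00134) and 2.34-fold higher in 4C11+ (1.23, SE 0.26, adjusted p = 0.0101). The call in 4C11- was kept in all 19 alternatives, while without melan-a replicate 2 the difference was 0.94 in 4C (adjusted p = 0.0635) and 0.90 in 4C11+ (adjusted p = 0.0945).

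Mcm3, another helicase subunit, had levels of 6.89 and 7.56 in melan-a, 8.56, 7.77 and 7.23 in 4C, 8.69, 8.55 and 8.54 in 4C11-, and 8.23, 8.31 and 8.49 in 4C11+. The melan-a libraries were below all 4C11- and 4C11+ libraries, and 4C overlapped with both sides. Mcm3 was 2.58-fold higher in 4C11- than in melan-a (1.36, SE 0.34, adjusted p = 0.0188) and 2.17-fold higher in 4C11+ (1.12, SE 0.34, adjusted p = 0.0439). Without melan-a replicate 2 the differences were 1.03 (adjusted p = 0.143) and 0.78 (adjusted p = 0.284). The first call was also lost without 4C11- replicate 2 (adjusted p = 0.0513), and the second without 4C replicate 2, 4C11- replicate 2 or 3, or any 1 of the 4C11+ replicates (adjusted p from 0.0540 to 0.109). Correction for transcript length and GC ended both (adjusted p = 0.0522 each), array weights ended the first (adjusted p = 0.0720), and the replicate block and a fit without a trend of variance on level ended the second (adjusted p = 0.0832 and 0.0807).

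Mcm2, a helicase subunit named whatever its values, had levels of 7.78 and 9.02 in melan-a, 9.15, 8.68 and 7.99 in 4C, 9.13, 9.18 and 9.19 in 4C11-, and 8.89, 8.79 and 9.15 in 4C11+. Melan-a replicate 2 was the lowest, and replicate 3 lay among the other lines. No comparison called Mcm2, and its largest difference was 0.77 (95% interval -0.04 to 1.58, adjusted p = 0.216) in 4C11- against melan-a. Mcm4, Mcm5, Mcm7 and Mcm10 passed no test, with ranges between line means of 0.81, 1.03, 0.70 and 0.61 and ranges within melan-a of 1.83, 1.07, 1.05 and 0.99. All 7 MCM genes were on the lower side in 4C11+ against 4C11-, at log2 differences of -0.22 to -0.56, with 4 of 7 (57.1%) free of overlap and 0 called by limma, beside 47.0% and 31.1% of all genes.

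Downstream of the helicase, primase lays the primers and the polymerases extend them. Prim2, the large primase subunit, had levels of 5.59 and 5.62 in melan-a, 6.70, 6.47 and 6.13 in 4C, 6.79, 6.60 and 6.64 in 4C11-, and 6.32, 6.21 and 6.23 in 4C11+. Both melan-a libraries were below every other library, 4C11- and 4C11+ did not overlap, and the melan-a pair differed by 0.04. Prim2 was 1.78-fold higher in 4C (0.83, SE 0.23, adjusted p = 0.0300) and 2.10-fold higher in 4C11- (1.07, SE 0.23, adjusted p = 0.00812) than in melan-a. The call in 4C11- was kept in all 19 alternatives. The call in 4C was lost without either melan-a replicate, 4C replicate 1 or 2, 4C11- replicate 2, or 4C11+ replicate 1 or 2, with differences of 0.69 to 0.85 and adjusted p from 0.0520 to 0.0969. It was also lost without a trend of variance on level (adjusted p = 0.0520) and after correction for transcript length and GC (adjusted p = 0.0572).

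Pole, the catalytic subunit of the leading-strand polymerase, had levels of 7.23 and 7.96 in melan-a, 7.95, 7.97 and 7.39 in 4C, 7.86, 8.05 and 8.11 in 4C11-, and 6.68, 6.76 and 7.05 in 4C11+. All 3 libraries of 4C11+ were below all the others. Pole was 2.26-fold lower in 4C11+ than in 4C11- (-1.17, SE 0.24, adjusted p = 0.00361) and 1.92-fold lower than in 4C (-0.94, SE 0.24, adjusted p = 0.0121). The first call was kept in all 19 alternatives, and the second was lost without 4C replicate 2 (adjusted p = 0.0584) or 4C11+ replicate 1 (adjusted p = 0.0565). Against melan-a the difference of Pole was -0.76 (95% interval -1.36 to -0.17, adjusted p = 0.0813), which did not pass, but without melan-a replicate 2 it was the 1 member called in that comparison.

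Pcna, the sliding clamp that holds the polymerases, had levels of 6.99 and 8.83 in melan-a, 8.54, 7.99 and 7.73 in 4C, 8.15, 8.52 and 8.67 in 4C11-, and 8.21, 8.05 and 8.65 in 4C11+. Melan-a held both the lowest and the highest library. No comparison called Pcna. Of the other polymerase and initiation genes, Prim1 and Pola1 had line means spanning 0.29 and 1.26, and the GINS helicase factors Gins1 and Gins2 spanned 1.18 and 1.36 with melan-a ranges of 1.84 and 1.86. Pola1, the polymerase that extends primers, ranged over 3.30 within 4C11- alone, where replicate 1 was at 4.69 and the others at 7.21 and 7.99.

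Rrm2, the small subunit of ribonucleotide reductase that limits deoxynucleotide supply, had levels of 5.47 and 7.56 in melan-a, 8.12, 7.68 and 6.84 in 4C, 7.99, 7.82 and 7.98 in 4C11-, and 8.10, 8.01 and 9.16 in 4C11+. Rrm2 is given here because 1 comparison called it, although it did not pass the F test. Melan-a replicate 2 was far below every library, replicate 3 lay within the range of 4C, and both were below 4C11+. The difference of 4C11+ from melan-a was 1.91, SE 0.56, adjusted p = 0.0375, or 3.77-fold. Without melan-a replicate 2 it was 0.87 (adjusted p = 0.345), and the call was also lost without 4C replicate 2, 4C11- replicate 2 or any 1 of the 4C11+ replicates (adjusted p from 0.0556 to 0.0981). It was lost as well with the replicate number as a block (adjusted p = 0.0538) and without a trend of variance on level (adjusted p = 0.0663). Tyms, thymidylate synthase, and Rrm1, the large reductase subunit, passed no test, with line means spanning 0.96 and 0.53.

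Upstream, E2f1, the E2F factor that activates many S-phase genes, had levels of 3.93 and 4.96 in melan-a, 5.73, 4.95 and 5.16 in 4C, 6.15, 5.21 and 5.50 in 4C11-, and 4.84, 4.87 and 5.16 in 4C11+. Melan-a replicate 2 was the lowest, and the libraries of 4C11- were above both of melan-a. The difference of 4C11- from melan-a was 1.18 (95% interval 0.34 to 2.02, adjusted p = 0.0668), short of the threshold, and no other comparison of E2f1 passed. The G1 cyclins Ccne1 and Ccne2 and the repressor E2f8 also passed no test. Ccne2 ran from 2.58 to 5.84 between the melan-a libraries. The licensing factors Cdc6 and Cdt1 and the licensing inhibitor Gmnn passed none, with line means spanning 1.92, 0.93 and 0.74. Cdc6 was 6.50 to 6.64 in 4C11-, above both melan-a libraries (3.73 and 5.59) and all of 4C11+ (4.37 to 6.38), with differences of 1.92 (95% interval 0.52 to 3.32, adjusted p = 0.0713) and -1.46 (95% interval -2.71 to -0.21, adjusted p = 0.0728) that missed the threshold.

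**Figure D4:**
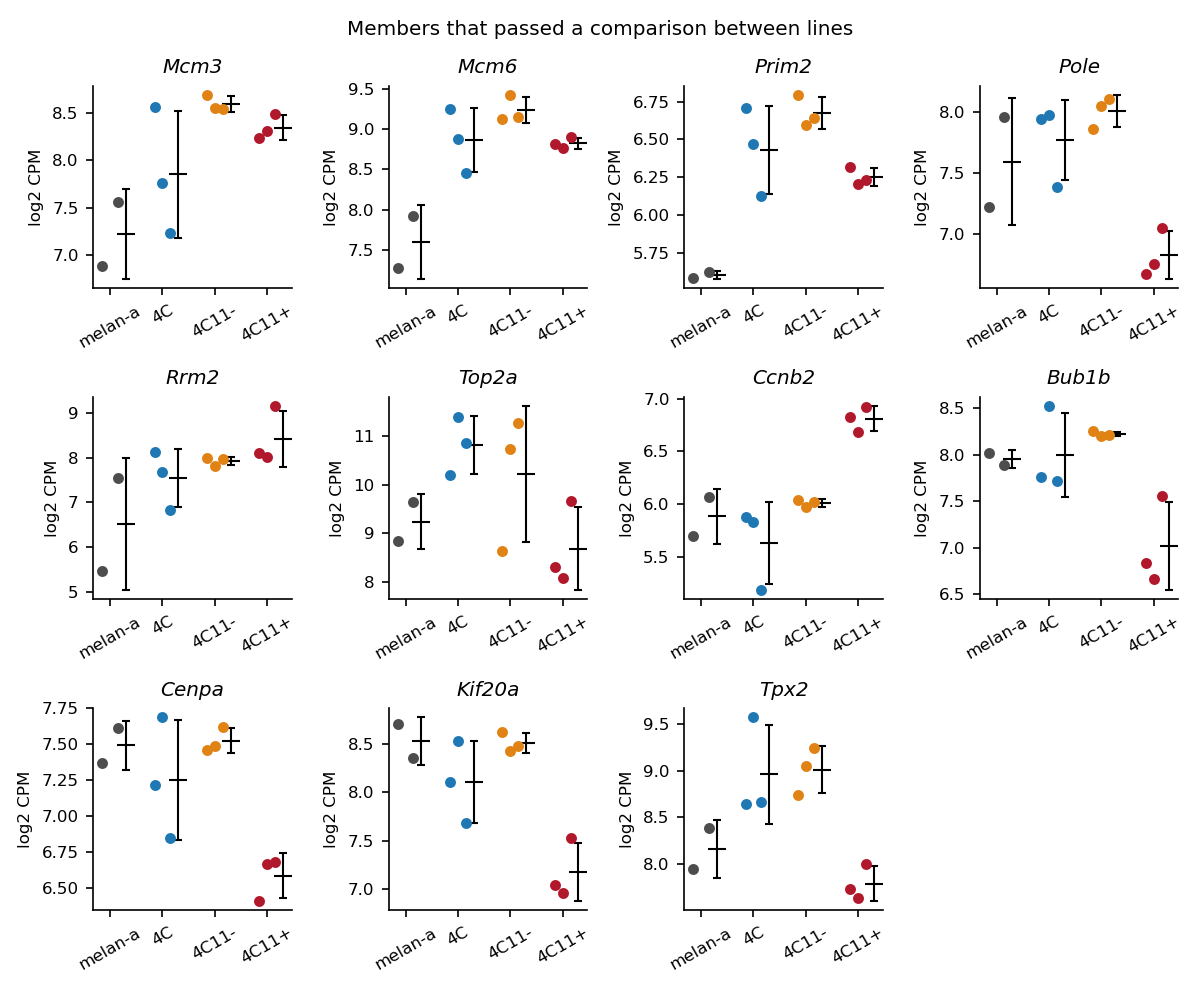
Log2 CPM of the 11 members past a pairwise comparison, 1 panel per gene, with each library as a point colored by line and the line mean with its SD as a black bar beside them (n = 2 for melan-a and 3 for each other line). Melan-a lies lowest for Mcm6 and Prim2, and 4C11+ lies below 4C and 4C11- for Pole, Bub1b, Cenpa, Kif20a and Tpx2 and above them for Ccnb2.

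Mitotic entry is driven by Cdk1 with A- and B-type cyclins. Ccnb2, a B-type cyclin, had levels of 5.70 and 6.07 in melan-a, 5.88, 5.83 and 5.18 in 4C, 6.04, 5.97 and 6.02 in 4C11-, and 6.83, 6.68 and 6.92 in 4C11+. The 3 libraries of 4C11+ were above all 8 others. Ccnb2 was 1.74-fold higher in 4C11+ than in 4C11- (0.80, SE 0.23, adjusted p = 0.0222), 2.26-fold higher than in 4C (1.18, SE 0.23, adjusted p = 0.00248) and 1.90-fold higher than in melan-a (0.92, SE 0.26, adjusted p = 0.0330). The call against 4C was kept in all 19 alternatives, that against 4C11- was lost without 4C11- replicate 2 or 4C11+ replicate 1 or 3 (adjusted p from 0.0572 to 0.0760), and that against melan-a was lost without melan-a replicate 2 (0.74, adjusted p = 0.196), 4C replicate 2, 4C11- replicate 2 or any 1 of the 4C11+ replicates (adjusted p from 0.0504 to 0.103). The call against melan-a was also lost with the replicate block (adjusted p = 0.0653) and without a trend of variance on level (adjusted p = 0.0539). Ccnb2, like Ccnb1, Pcna and Tyms, has annotated pseudogene copies with which reads could be shared, so its value is uncertain to that extent.

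Cdk1, the kinase of mitotic entry, had levels of 7.44 and 8.66 in melan-a, 7.80, 8.15 and 7.20 in 4C, 8.25, 8.11 and 8.17 in 4C11-, and 8.20, 8.13 and 8.25 in 4C11+. The libraries of 4C11- and 4C11+ lay within 0.14 log2 units, and the melan-a pair lay 1.21 apart. Cdk1 passed no test, and its difference between 4C11+ and 4C11- was 0.01 (95% interval -0.66 to 0.68, adjusted p = 0.977). The partner cyclins Ccna2 and Ccnb1, the phosphatase Cdc25c and the kinases Plk1 and Aurka passed none either, with line means spanning 0.87, 0.27, 0.64, 0.20 and 0.67. In the chromosomal passenger complex, Aurkb and Birc5 were above 4C11- in all 3 libraries of 4C11+, at differences of 0.27 (95% interval -0.37 to 0.92, adjusted p = 0.516) and 0.40 (95% interval -0.12 to 0.92, adjusted p = 0.227), and neither passed.

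The spindle checkpoint delays anaphase until chromosomes are attached. Bub1b, the checkpoint kinase-like protein BubR1, had levels of 8.02 and 7.89 in melan-a, 7.76, 8.52 and 7.72 in 4C, 8.25, 8.21 and 8.21 in 4C11-, and 6.84, 6.66 and 7.55 in 4C11+. All libraries of 4C11+ were below all others, and the 4C11- replicates differed by at most 0.04. Bub1b was 2.30-fold lower in 4C11+ than in 4C11- (-1.20, SE 0.27, adjusted p = 0.00592) and 1.98-fold lower than in 4C (-0.98, SE 0.27, adjusted p = 0.0169). The first call was kept in all 19 alternatives, and the second was lost without 4C replicate 2 or 4C11+ replicate 1 or 2 (adjusted p from 0.0735 to 0.0838). Bub1, Cdc20 and Ube2c, the last 2 an activator and the conjugating enzyme of the anaphase-promoting complex, passed no test, and Cdc20 and Ube2c were lower in all 4C11+ libraries than in all 4C11- libraries, at differences of -0.59 (95% interval -1.12 to -0.06, adjusted p = 0.0857) and -0.89 (95% interval -1.62 to -0.16, adjusted p = 0.0616).

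At the centromere, Cenpa, the histone H3 variant that marks it, had levels of 7.37 and 7.61 in melan-a, 7.22, 7.69 and 6.85 in 4C, 7.46, 7.49 and 7.62 in 4C11-, and 6.41, 6.67 and 6.68 in 4C11+. The 4C11+ libraries were below all others. Cenpa was 1.92-fold lower in 4C11+ than in 4C11- (-0.94, SE 0.23, adjusted p = 0.00872), 1.87-fold lower than in melan-a (-0.91, SE 0.25, adjusted p = 0.0325) and 1.59-fold lower than in 4C (-0.67, SE 0.23, adjusted p = 0.0434). The first call was kept in all 19 alternatives. The call against melan-a was lost without either melan-a replicate, 4C11- replicate 2 or 4C11+ replicate 1 or 2 (adjusted p from 0.0550 to 0.121), with the replicate block (adjusted p = 0.0624) and without a trend of variance on level (adjusted p = 0.0625). That against 4C was lost without such a trend (adjusted p = 0.0764) and without 4C replicate 1 or 2, 4C11- replicate 2 or 3, or any 1 of the 4C11+ replicates (-0.45 to -0.71, adjusted p from 0.0505 to 0.197).

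The kinetochore motor Cenpe and the kinetochore protein Cenpf passed no test despite line means spanning 1.70 and 2.31, and they ranged over 4.79 and 3.86 within 4C11-. Cenpe was at 3.41 in 4C11- replicate 1 and at 6.76 and 8.20 in the others. Cenpf was at 4.85, 7.0 and 8.71 in the same libraries.

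Spindle motors and microtubule proteins build the spindle and finish cell division. Kif20a, the kinesin that acts at the central spindle, had levels of 8.71 and 8.36 in melan-a, 8.11, 8.53 and 7.68 in 4C, 8.63, 8.43 and 8.48 in 4C11-, and 7.04, 6.96 and 7.52 in 4C11+. All 4C11+ libraries were below all others. Kif20a was 2.52-fold lower in 4C11+ than in 4C11- (-1.33, SE 0.24, adjusted p = 0.00163), 2.56-fold lower than in melan-a (-1.35, SE 0.27, adjusted p = 0.00707) and 1.91-fold lower than in 4C (-0.93, SE 0.24, adjusted p = 0.0129). The first call was kept in all 19 alternatives, that against melan-a was lost without melan-a replicate 2 (adjusted p = 0.0611), and that against 4C without 4C replicate 2 or 4C11+ replicate 1 or 2 (adjusted p from 0.0576 to 0.0668).

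Tpx2, the microtubule nucleator that activates Aurora A, had levels of 7.94 and 8.38 in melan-a, 8.64, 9.57 and 8.67 in 4C, 8.74, 9.05 and 9.24 in 4C11-, and 7.74, 7.64 and 8.0 in 4C11+. The 4C11+ libraries were below all of 4C and 4C11-, and melan-a lay between, with replicate 2 within the range of 4C11+. Tpx2 was 2.33-fold lower in 4C11+ than in 4C11- (-1.22, SE 0.27, adjusted p = 0.00508) and 2.24-fold lower than in 4C (-1.17, SE 0.27, adjusted p = 0.00625), and both calls were kept in all 19 alternatives. Its partner kinase Aurka did not pass in the same comparison, at -0.51 (95% interval -1.07 to 0.04, adjusted p = 0.146). The motors Kif11 and Kif23 and the spindle protein Nusap1 passed no test, and each had its lowest library of all 11 in 4C11- replicate 1, at 4.76, 5.45 and 5.06.

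On mitotic chromosomes, Mki67, the proliferation marker Ki-67, had levels of 7.49 and 9.57 in melan-a, 8.28, 10.05 and 9.07 in 4C, 5.07, 8.53 and 9.73 in 4C11-, and 7.35, 6.34 and 8.78 in 4C11+. The 4C11- libraries spanned 4.65 log2 units, more than the full range of the other 8. Mki67 passed no test, and its difference between 4C11+ and 4C11- was -0.29 (95% interval -2.57 to 1.99, adjusted p = 0.857). Top2a, the topoisomerase that untangles sister chromatids, had levels of 8.84 and 9.64 in melan-a, 10.20, 11.39 and 10.85 in 4C, 8.64, 10.74 and 11.27 in 4C11-, and 8.32, 8.09 and 9.66 in 4C11+. All of 4C was above all of 4C11+, and 4C11- overlapped with both. Top2a was 4.36-fold lower in 4C11+ than in 4C (-2.13, SE 0.62, adjusted p = 0.0219), and the call was lost without 4C replicate 2 or 3 or 4C11+ replicate 1 or 2 (-1.83 to -2.11, adjusted p from 0.0637 to 0.0913). It did not pass the F test.

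Of the factors that drive mitotic genes, Foxm1, the forkhead factor, had levels of 6.74 and 6.96 in melan-a, 7.15, 7.13 and 6.34 in 4C, 6.78, 6.77 and 6.80 in 4C11-, and 7.52, 7.52 and 7.19 in 4C11+. Foxm1 was highest in the 3 libraries of 4C11+. It was above 4C11- by 0.63 (95% interval 0.11 to 1.15, adjusted p = 0.0660), which missed the threshold, while Bub1b, Cenpa, Kif20a and Tpx2 fell in that comparison. Mybl2, B-Myb, which binds the MuvB complex, had levels of 5.14 and 6.43 in melan-a, 7.14, 6.69 and 5.57 in 4C, 7.01, 6.77 and 6.98 in 4C11-, and 6.30, 6.50 and 5.84 in 4C11+. Melan-a replicate 2 was the lowest, and the largest difference, 1.14 (95% interval 0.13 to 2.14, adjusted p = 0.139) in 4C11- against melan-a, did not pass.

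The deviations of the members from their line means were set beside the GC content and the length of their transcripts. The longest annotated transcript of each gene was used, whether or not it is the form these lines express. Across the 49 members, the deviation of 4C11- replicate 1 from its line mean had a Pearson r of 0.63 with GC content, and the same r over all genes with a length was 0.59. In the other 10 libraries r with GC lay between -0.60 and 0.51 for the members. With log2 transcript length, r for the members was -0.54 in 4C11- replicate 1 (-0.23 over all genes). It lay between -0.54 and 0.57 in the other libraries. The 10 members of lowest GC (36.3% to 43.4%) had a median deviation of -1.69 in 4C11- replicate 1, 0.55 in replicate 2 and 1.13 in replicate 3. The 10 of highest GC (52.7% to 58.3%) had medians of 0.13, -0.11 and -0.12. The deviations of a gene within a line cancel out, so those of 4C11- replicates 2 and 3 are tied to that of replicate 1. Cenpe, Mki67, Cenpf, Kif11, Pola1, Ccne2 and Bub1 had the largest residual SDs, from 1.63 to 1.03, against a median of 0.47 over the members and 0.48 over all genes. These correlations describe genes that share libraries, with no p, and the part of transcript composition and length in them was not tested.

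**Figure D5:**
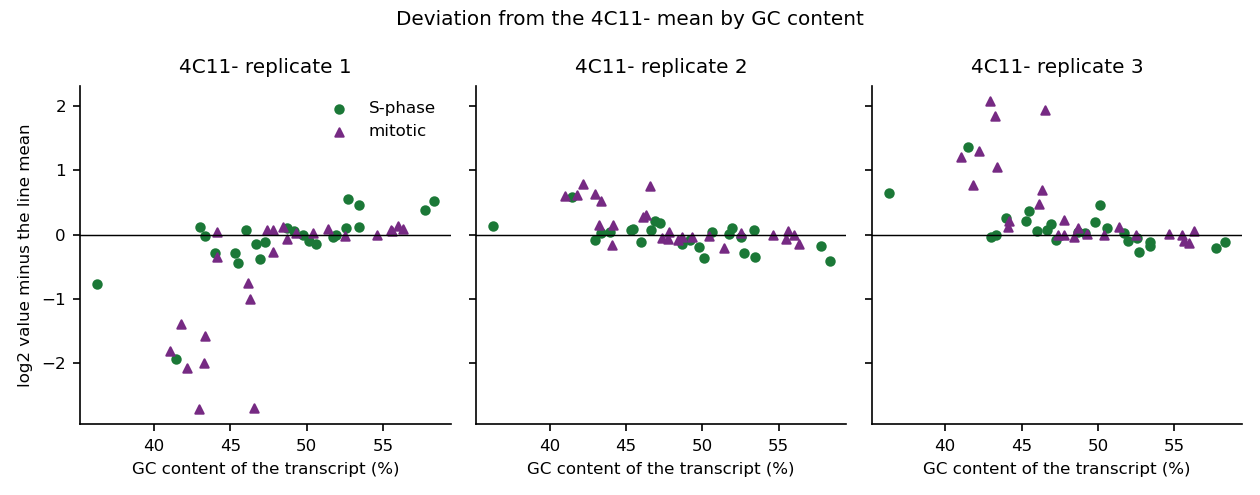
Log2 value of each of 49 members minus the mean of 4C11- (y axis) against the GC content of its transcript in percent (x axis), 1 panel per 4C11- replicate, with circles for S-phase and triangles for mitotic genes. The 10 members of lowest GC have a median of -1.69 in replicate 1 and 1.13 in replicate 3, and the 10 of highest GC 0.13 and -0.12, with members such as Mki67 (46.6% GC, -2.71 in replicate 1) and Prim2 (0.12) off this pattern. All panels use the same line mean, so they are not independent of each other.

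Correcting each library for GC content and transcript length, an alternative chosen after the data were seen, gave a lower residual SD for 20 of 49 members and a higher one for 29. The median over the members went from 0.47 to 0.50, and that over all genes from 0.48 to 0.42. The residual SD of Cenpe went from 1.63 to 1.21 and that of Kif11 from 1.23 to 0.86, while that of Prim2 went from 0.17 to 0.35 and that of Rrm1 from 0.20 to 0.37. The corrected fit called 11 members in 4C11+ against 4C11- (39.4% of all genes), the 6 above and Prim2, Ccne2, Top2a, Gmnn and Foxm1. With melan-a replicate 2 and 4C11- replicate 1 both left out, also chosen after the data were seen, 14 members passed in this comparison (39.2% of all genes), 13 of them lower, and Cenpe, Kif11, Bub1, Nusap1 and Pola1 were among them.

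Other genes of the same pathways were read from fixed lists of 44 replication genes, 68 mitosis genes and 17 E2F, RB and DREAM regulators. The F test called 8 of 44 (18.2%), 12 of 68 (17.6%) and 7 of 17 (41.2%), beside the 36.1% of all genes. In 4C11+ against 4C11-, 11 replication genes fell and 0 rose, 12 mitosis genes fell and 1 rose, and 5 regulators fell and 1 rose. These are 25%, 19.1% and 35.3% of the lists, beside 31.1% of all genes called (15.4% lower and 15.6% higher). The medians were -0.36, -0.42 and -0.13 beside 0.12 over all genes.

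Pttg1, securin, which restrains separase, was 4.46 to 4.68 in 4C11+ and 6.37 to 6.87 in 4C11-, a difference of -1.97 (SE 0.23, adjusted p = 6.56e-05). Espl1, separase itself, was 6.47 to 6.89 and 7.79 to 7.87, a difference of -1.22 (SE 0.24, adjusted p = 0.00245). Cenpi, a constitutive centromere protein, was 3.70 to 4.64 and 6.30 to 6.90, a difference of -2.56 (SE 0.33, adjusted p = 0.000147). Lack of overlap between the lines was part of the rule for naming these genes. In this comparison 33.8% of the mitosis list was free of overlap, beside 47.0% of all genes.

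Among replication genes, Wdhd1, which couples the helicase to the primase-polymerase, fell in 4C11+ against 4C11- by 2.10 (SE 0.43, adjusted p = 0.00340), and Pola2, the accessory subunit of that polymerase, by 1.40 (SE 0.33, adjusted p = 0.00796). Orc2, of the origin recognition complex, and Cdc25a, the phosphatase that activates Cdk2, were higher in 4C11+ than in melan-a, at 1.55 (SE 0.39, adjusted p = 0.0197) and 1.26 (SE 0.28, adjusted p = 0.0119). Of the regulators, E2f7, a repressor, and Tfdp1, the DP partner of E2F proteins, fell in 4C11+ against 4C11- by 1.86 (SE 0.40, adjusted p = 0.00456) and 1.76 (SE 0.32, adjusted p = 0.00159), while Lin52, a MuvB subunit, rose by 1.44 (SE 0.36, adjusted p = 0.0103). E2f6, a repressor, was higher than in melan-a in 4C (1.30 (SE 0.26, adjusted p = 0.00459)), 4C11- (1.18 (SE 0.26, adjusted p = 0.00914)) and 4C11+ (1.58 (SE 0.26, adjusted p = 0.00196)). In 4C11- against 4C, where 0 members passed, the called genes of these lists were Melk, a kinase of cycling cells (1.21 (SE 0.26, adjusted p = 0.0419)), and Rbbp4, a histone chaperone (0.90 (SE 0.19, adjusted p = 0.0355)). Rbbp4 was also lower in 4C than in melan-a (-0.69, SE 0.21, adjusted p = 0.0437). Both genes were lower in 4C11+ than in 4C11-, Melk by 1.21 (SE 0.26, adjusted p = 0.00441) and Rbbp4 by 0.58 (SE 0.19, adjusted p = 0.0331).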

How the data were processed

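RNA of 4 lines was sequenced in 11 libraries. The authors trimmed reads with Trimmomatic, used STAR for alignment to the mouse genome (GRCm38, Ensembl) and Rsubread for counting per gene, dropped genes that did not reach 1 CPM in 4 libraries, and transformed the counts with voom; the versions are not given in the sources used here. The deposited values are log2 CPM and share 1 distribution across libraries, as after quantile normalization, a step not stated in the sources used here. Values were used as deposited, and 24 of the 14272 genes had no symbol.

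Line means were compared with limma 3.58.1 in R 4.3.3, fitted to all 11 libraries with a trend of the variance on the mean, and p-values were adjusted over all genes by the method of Benjamini and Hochberg; an adjusted p under 0.05 was called. The fit was tested on simulated data. Tables and plots were made in Python 3.11.15 with NumPy 2.4.6, pandas 2.3.3 and matplotlib 3.10.9. Transcript length and GC content were those of the longest GENCODE transcript of each gene. Promoters came from RefSeq, and both sources were on the GRCm38 build.

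Members and gene lists were chosen with earlier results of these data known. Levels in every library are given for members past the F test, for Mki67, Top2a, Cdk1, Pcna, Mcm2, E2f1, Foxm1 and Mybl2, and for Rrm2, which was added after its values were seen. Other pathway genes were eligible if past the threshold without overlap between libraries, up to 5 per list and comparison with the largest difference, and not all are named. Of the markers examined, keratinocyte, leukocyte and endothelial lists had values for 1 of 5, 2 of 6 and 1 of 4 genes; the summed leukocyte level was 1.86 to 5.27 in all libraries, Krt10 was -2.58 to 1.48, and Cdh5 was 6.54 to 7.43 in 4C11- and at most 4.01 elsewhere.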

Additional observations from a re-analysis of the deposited data

How the results depend on the processing

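Across 19 alternatives to the fit, 9 of the 24 called differences passed in every one, 7 were lost in 1 to 3, 8 were lost in more, and 0 reversed. A further quantile normalization, centering on medians and leaving out genes with a mean under 1 gave the same counts of called members. The first 2 of these could change little, since the deposited values already share 1 distribution across libraries. They are therefore no test of the normalization. Shares in parentheses are of all genes called in the same fit. Without a trend, 1 member passed for 4C (13.9%) and 2 for 4C11+ (14.0%), each against melan-a. With array weights, 4 passed for 4C against melan-a (17.0%), then 14 for 4C11+ against 4C11- (41.4%), 30 for 4C11+ against 4C (74.6%) and 31 in the F test (73.2%), and this fit did not reach its convergence tolerance. Correction for transcript length and GC content gave 11 in 4C11+ against 4C11- (39.4%) and 5 in 4C11- against melan-a (19.4%). Leaving out melan-a replicate 2 and 4C11- replicate 1 together gave 1 member for 4C (18.2%), 2 for 4C11- (14.7%) and 3 for 4C11+ (13.9%), with melan-a as the reference, 14 in 4C11+ against 4C11- (39.2%), 12 in 4C11+ against 4C (43.4%) and 12 in the F test (44.9%). These last 2 alternatives were chosen after the data were seen. The numbers were not taken to pair the libraries, since not every pair deviated together: 8 of 15 same-numbered pairs between lines had a correlation of deviations over 0.1 (-0.23 to 0.39), as did 11 of 30 other pairs (-0.42 to 0.34). The replicate block gave 3 members for 4C (15.9%), 3 for 4C11- (13.1%) and 2 for 4C11+ (13.5%), each against melan-a, 0 for 4C11- (1.78%) and 8 for 4C11+ (34.3%) against 4C, 8 for 4C11+ against 4C11- (33.0%), and 10 in the F test (37.1%). Leaving out 1 library at a time gave, in the same order, 0 to 7 (10.2% to 18.7%), 2 to 15 (9.57% to 14.7%), 1 to 9 (7.63% to 20.1%), 0 to 0 (0.652% to 2.24%), 2 to 11 (21.8% to 37.3%), 5 to 9 (20.9% to 33.7%) and 4 to 23 (23.9% to 41.3%). The highest counts against melan-a, 7 for 4C (13%), 15 for 4C11- (11.8%) and 9 for 4C11+ (17.6%), and the 23 (39.0%) came without melan-a replicate 3, and the lowest in 4C and 4C11+, 0 (13.1%) and 1 (8.3%), without melan-a replicate 2. The lone melan-a library is then assumed to vary like the other lines. The causes were not tested.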
